A study of Mus musculus with 5 samples.

Results

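The fibrillins measured here are the 2 genes whose rows in the deposited count tables carry the symbols Fbn1 and Fbn2, out of 32285 genes in each table. Droplet-based 3′ single-cell RNA counts came from dissociated lungs of E18.5 mouse embryos, in 5 libraries. Per the labels, 2 embryos were Zswim8+/- (Het1 and Het2) and 3 were Zswim8-/- (KO1, KO2 and KO3). No further allele, strain, treatment, Cre driver or promoter is named in the labels, and no wild-type lung entered any comparison. Both genes were chosen by symbol, with the Het and KO levels of these libraries already known, so those levels count as values that chose the members. Their Het and KO levels are therefore given as a description, with the standard error (SE) of the fit and without a test.

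Fibrillins are large secreted glycoproteins that polymerise end to end into microfibrils of the extracellular matrix. Microfibrils serve as the scaffold on which tropoelastin is deposited and cross-linked into elastic fibres, and they hold the latent complexes of transforming growth factor beta (TGF-beta) and several bone morphogenetic proteins in the matrix. Fibrillin-1 is the gene product altered in Marfan syndrome and is made by mesenchymal cells throughout life. Fibrillin-2 is the gene product altered in congenital contractural arachnodactyly and is made mainly before birth. In the late fetal lung, elastic fibres are laid down by fibroblasts and myofibroblasts as the distal air sacs form. ZSWIM8 is the substrate adaptor of a ubiquitin ligase that destroys Argonaute proteins loaded with certain microRNAs (miRNAs).

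Fbn1 (ENSMUSG00000027204) lies on chromosome 2 of GRCm38, from 125300594 to 125507993 on the minus strand. Its protein-coding transcript with the longest 3′ untranslated region (UTR) has 66 exons and encodes 2873 amino acids, with a 3′ UTR of 992 bases. These models are from GENCODE M21.

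Because ZSWIM8 acts on miRNAs, both 3′ UTRs were searched on the transcript strand for the 7-base match to the seed of 5 miRNAs. The mature sequences follow, from RefSeq, with the seed (bases 2 to 8) in capitals.
miR-7a-5p: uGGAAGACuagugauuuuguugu
miR-29b-3p: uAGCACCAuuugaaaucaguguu
miR-322-5p: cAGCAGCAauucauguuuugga
miR-503-5p: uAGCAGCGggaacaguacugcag
miR-335-3p: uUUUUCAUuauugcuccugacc
No pair of the 5 shares a whole seed. The Fbn1 3′ UTR held 2 matches to the miR-29b-3p seed (TGGTGCT) and 1 to the miR-335-3p seed (ATGAAAA). The Fbn2 3′ UTR held 1 match to the miR-29b-3p seed. Neither 3′ UTR held a match for miR-7a-5p (GTCTTCC), miR-322-5p (TGCTGCT) or miR-503-5p (CGCTGCT). At least 1 miR-29b-3p match was present in 13.1% of 21014 annotated 3′ UTRs, a miR-335-3p match in 19.8%, a miR-7a-5p match in 11.9%, a miR-322-5p match in 20.3% and a miR-503-5p match in 3.94%. The matches in Fbn1 follow in windows of 30 bases, with the seed match in capitals. The first and second are the miR-29b-3p matches at chr2:125301174-125301180 and chr2:125300924-125300930, and the third is the miR-335-3p match at chr2:125301552-125301558, all on the minus strand of GRCm38.
Fbn1 miR-29b-3p match nearer the stop codon: tttctgttgtctgttTGGTGCTagtaaatt
Fbn1 miR-29b-3p match farther from the stop codon: tgtgagggtttgtaaTGGTGCTtattaaga
Fbn1 miR-335-3p match: agaccaaataattaaATGAAAAagcaacct
Such a match is a string of letters and was not tested as a site.

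After filtering, the libraries held 3051 to 4634 cells with a median of 9714 to 12708 unique molecular identifiers (UMIs) per cell, and summed to 40413603 to 65181823 UMIs. Between 5 and 20 kept cell barcodes of each library were also kept in another library. Zswim8 itself gave 36.4 and 38.6 CPM (UMIs scaled to a common library total) in the Het libraries, and 38.0, 39.3 and 40.8 CPM in the KO libraries, so the groups overlapped. By class the direction varied: Zswim8 was at 44.2 and 42.1 CPM in Het and 32.4, 38.0 and 38.4 CPM in KO in AT2 cells (log2 change -0.24, SE 0.12), and at 44.4 and 36.1 CPM against 47.8, 46.1 and 47.3 CPM in fibroblasts (0.23, SE 0.12). A 3′ count says nothing of the integrity of the transcript, and every direction below rests on the labels. By their Xist and Y-linked counts KO1 and KO2 came from female embryos and the other 3 from males, so embryo sex and genotype are partly confounded. Cells were clustered without Fbn1, Fbn2 or the pathway genes used below and named from marker genes, and from 23.2% to 33.6% of the cells of a library stayed without a class name. Levels are CPM of the UMIs summed over the cells of a class in 1 library, scaled by the trimmed mean of M values (TMM) within that class. Levels of different classes come from separate scalings, so the orders given below are descriptions.

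In the Het lungs Fbn1 was highest in mesenchymal and some endothelial cells. The mean Fbn1 level was 744 CPM in arterial endothelium (564 and 924 CPM), 684 in fibroblasts (691 and 677), 431 in smooth muscle (457 and 405), 342 in myofibroblasts (334 and 350) and 233 in mesothelium (242 and 223). The ranges of arterial cells and fibroblasts overlapped, and each later neighbour in this order lay below the one before it in both libraries. Lymphatic endothelium, not placed in this order for its 10 and 6 Het cells, gave 207 and 200 CPM in Het and 152, 102 and 193 CPM in KO without scaling factors. The unnamed cluster 37, led by Vwf and Procr, gave 212 and 368 CPM in Het and 296, 140 and 233 CPM in KO on the same scale. Among the ordered classes below mesothelium the level dropped to 12.3 CPM in general capillary cells, 10.7 in alveolar type 1 (AT1) cells, 8.23 in alveolar type 2 (AT2) cells and 7.01 in airway epithelium. Neighbours among these 4 overlapped between the libraries. Macrophages, the C1q-expressing class, were at 3.03 CPM of Fbn1. The KO libraries gave the same order from arterial cells (824 CPM) through fibroblasts (538), smooth muscle (393), myofibroblasts (243) and mesothelium (213), with the last 2 overlapping.

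Fbn2 (ENSMUSG00000024598) lies on chromosome 18, from 58008623 to 58210487 on the minus strand, and its transcript chosen in the same way has 65 exons, 2907 amino acids and a 3′ UTR of 1635 bases. Fbn2 was spread over more lineages than Fbn1, and its order over the classes was not the same in the 2 groups. In the Het libraries the mean Fbn2 level was 632 CPM in fibroblasts (533 and 732), 296 in smooth muscle, 188 in myofibroblasts, 186 in AT1 cells (144 and 228) and 121 in AT2 cells (107 and 135). The ranges of myofibroblasts and AT1 cells overlapped. Arterial cells were at 44.8 CPM, general capillary cells at 31.5, airway epithelium at 16.5 and macrophages at 5.78. Het mesothelium gave 21.6 and 179 CPM of Fbn2 in its 2 libraries, a spread that allows it no place in the order. In the KO libraries AT2 cells (503 CPM), AT1 cells (496) and fibroblasts (484) formed the top of the order with overlapping ranges. Smooth muscle (257), myofibroblasts (226), arterial cells (87.4), general capillary cells (85.9) and airway epithelium (43.1) followed. The plot of the levels by cell class shows both genes in every library.

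**Figure D1:**
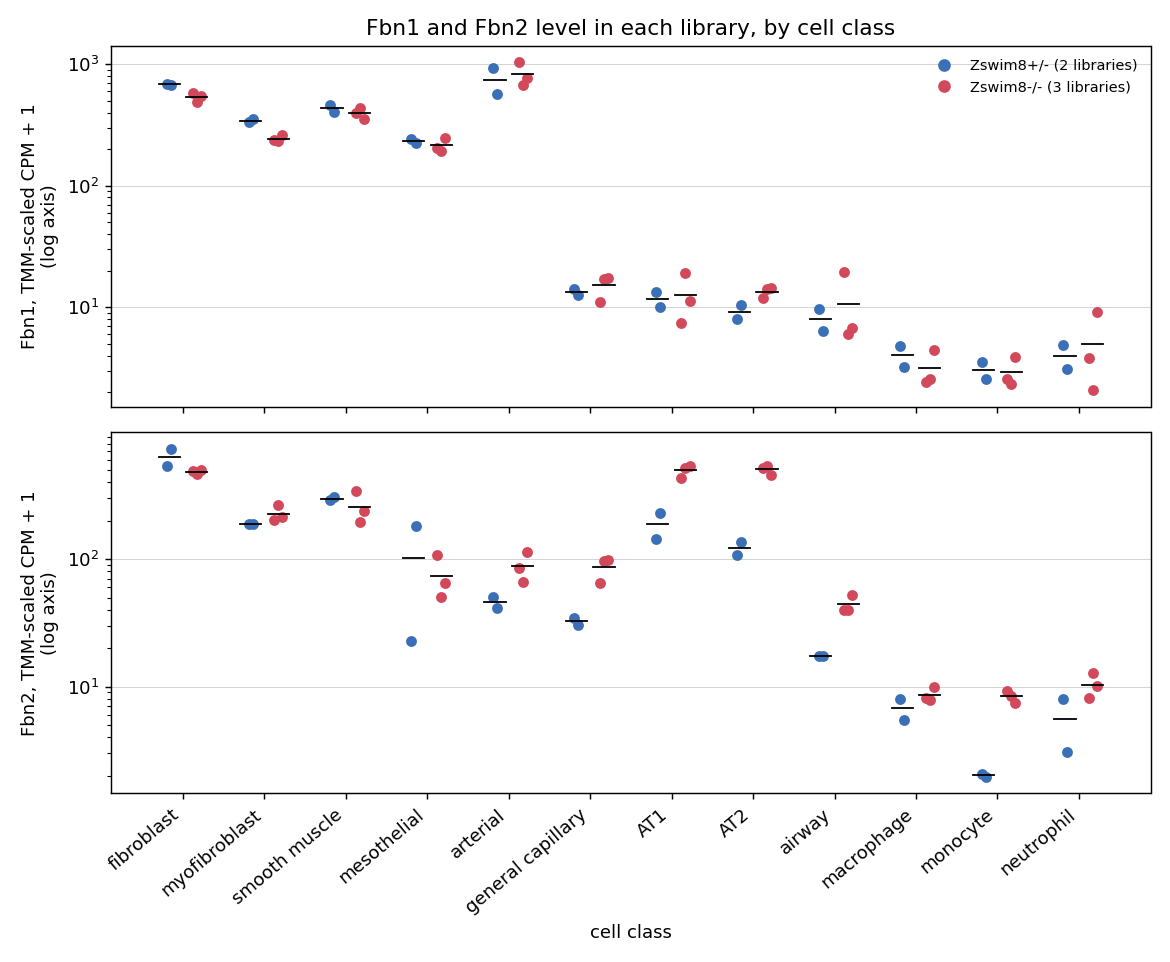
Level of Fbn1 (upper panel) and Fbn2 (lower panel) in 12 cell classes, as TMM-scaled CPM plus 1 on a log axis. Points are libraries, blue for Zswim8+/- and red for Zswim8-/-, and black lines are group means. In AT2 cells the 3 red Fbn2 points sit between 458 and 537 CPM and the 2 blue points at 107 and 135 CPM, while in fibroblasts the red points lie below both blue points.

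Pericytes and lymphatic cells had fewer than 20 cells in at least 1 library and were not fitted. Pericyte sums, scaled by library size alone, held Fbn1 at 180 and 273 CPM in the Het libraries and from 165 to 240 CPM in the KO libraries. Their Fbn2 was at 228 and 177 CPM in Het and from 152 to 207 CPM in KO. Aerocytes, the capillary cells specialised for gas exchange, had 62 and 41 cells in the Het libraries with 0 Fbn1 UMIs in both, and 1 cell in KO1 and none in KO2 or KO3.

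The largest Het and KO difference of either fibrillin in a class of the alveolar epithelium was that of Fbn2 in AT2 cells, the surfactant-secreting cells. Het1 held 107 CPM of Fbn2 and Het2 135 CPM, from 523 and 540 UMIs. The KO libraries held 515, 537 and 458 CPM, from 2273, 4724 and 4544 UMIs. The groups did not overlap, as held for 49.9% of the 12250 genes tested in AT2 cells. The fitted log2 change was 2.06 (SE 0.13), or 4.16-fold. KO3, at 458 CPM, was the only male KO embryo, and the part of embryo sex in this difference was not tested. The AT2 class joined a cluster led by Lyz1 and Retnla (cluster 13) and one led by Cldn18 and Sftpc (cluster 15), and these held different shares of it. Cluster 13 had 213 and 125 of the Het cells against 36, 32 and 71 of the KO cells, and cluster 15 had 62 and 61 against 92, 110 and 149. Within cluster 15 Fbn2 was at 173 and 195 CPM in Het and at 572, 584 and 522 CPM in KO, a log2 change of 1.60 (SE 0.11). The groups again did not overlap, as for 44.6% of the 11675 genes tested in that cluster. Within cluster 13 it was at 59.5 and 58.2 CPM in Het and 109, 166 and 87.9 CPM in KO, a log2 change of 1.01 (SE 0.21). The change within either cluster was thus smaller than that of the joint class.

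Cells with UMIs of at least 3 marker genes of another lineage, called mixed here, made up 13.8% and 18.8% of the Het and 28.1%, 39.4% and 37.7% of the KO cells of the AT2 class. They held 33.8% and 54.3% of its Het Fbn2 UMIs and 66.9% to 81.4% of its KO Fbn2 UMIs. The summed level of 8 mesenchymal markers in AT2 cells was 114 and 151 CPM in Het and 393, 288 and 355 CPM in KO. Of the 8, 5 lay above the Het range in every KO library, 0 lay below it in every KO library, and none was at 0. The groups did not overlap, in either direction, for 49.9% of the 12250 genes tested in AT2 cells. Without the mixed cells, the Fbn2 log2 change in AT2 cells was 1.94. AT2 cells were also deeper in KO, with medians of 15775 and 17672.5 UMIs per cell in Het and 18885, 37208.5 and 25716.5 in KO. The rule for mixed cells used counts without thinning, so a deeper cell meets it more easily. The part of depth in the mixed shares was not tested.

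AT1 cells, the thin gas-exchange cells, gave the next clear case. Their Fbn2 level was 144 and 228 CPM in Het and 430, 522 and 536 CPM in KO, a log2 change of 1.42 (SE 0.18). The KO libraries lay above both Het libraries, as one group lay beyond the other for 34.9% of the 9921 genes tested. General capillary cells had Fbn2 at 33.6 and 29.4 CPM in Het and 64.2, 95.4 and 98.2 CPM in KO, a log2 change of 1.46 (SE 0.19), and groups did not overlap for 37.3% of their genes. At a clustering resolution of 0.5 the capillary value was 0.68. Airway epithelium, which joined secretory and ciliated cells, had Fbn2 at 16.5 CPM in both Het libraries and at 39.2, 39.1 and 51.04 CPM in KO, with no overlap, as for 26.5% of its genes. The log2 change there was 1.38 (SE 0.16) and 0.93 without mixed cells. A shallow airway cluster of median 1444.5 UMIs per cell, led by Cyp2f2 and Scgb1a1, held 230 and 136 of the Het and 52, 47 and 11 of the KO airway cells. In the deeper ciliated cluster (cluster 26) Fbn2 was at 11.4 and 17.8 CPM in Het and 33.04, 41.0 and 48.7 in KO. In the secretory cluster (cluster 33) it was at 29.1 and 18.4 CPM in Het and 66.4, 38.5 and 77.6 in KO. Arterial Fbn2 was at 49.0 and 40.5 CPM in Het and 83.6, 65.0 and 114 CPM in KO, a log2 change of 0.96 (SE 0.27).

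In fibroblasts, the main source of microfibrils, Fbn2 was lower in KO. Fbn2 was at 533 and 732 CPM in Het and at 490, 465 and 497 CPM in KO, a log2 change of -0.39 (SE 0.13). All KO libraries lay below both Het libraries, as one group lay beyond the other for 31% of the 11764 genes tested. Without Het2 the value was -0.13, and without Het1 it was -0.60. Of the 5 clusters of the class, the 3 larger ones gave unlike values. In cluster 10, named from Tcf21, Npnt, Limch1 and Fgf10 and led by Dpep1, Ogn and Lox, Fbn2 was at 889 and 925 CPM in Het and at 410, 550 and 515 CPM in KO. This is a log2 change of -0.88 (SE 0.13), and the groups did not overlap, as for 29.7% of the 8798 genes tested there. In cluster 6, named from adventitial markers such as Pi16 and Dpt, Fbn2 was at 451 and 732 CPM in Het and 712, 627 and 672 CPM in KO, and the groups overlapped. In cluster 18, led by Mfap4 and Tcf21, it was at 85.9 and 152 CPM in Het and 70.7, 168 and 134 CPM in KO, also with overlap. The cells of cluster 18 numbered 36 and 25 in Het and 114, 80 and 95 in KO, so the low-Fbn2 cluster was a larger part of the KO class. The summed level of 8 AT2 markers in cluster 10 was 401 and 273 CPM in Het and 756, 1154 and 389 CPM in KO, and its part in the result was not tested. Whether the change in cluster 10 differed from that in AT2 cells was not tested.

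**Figure D2:**
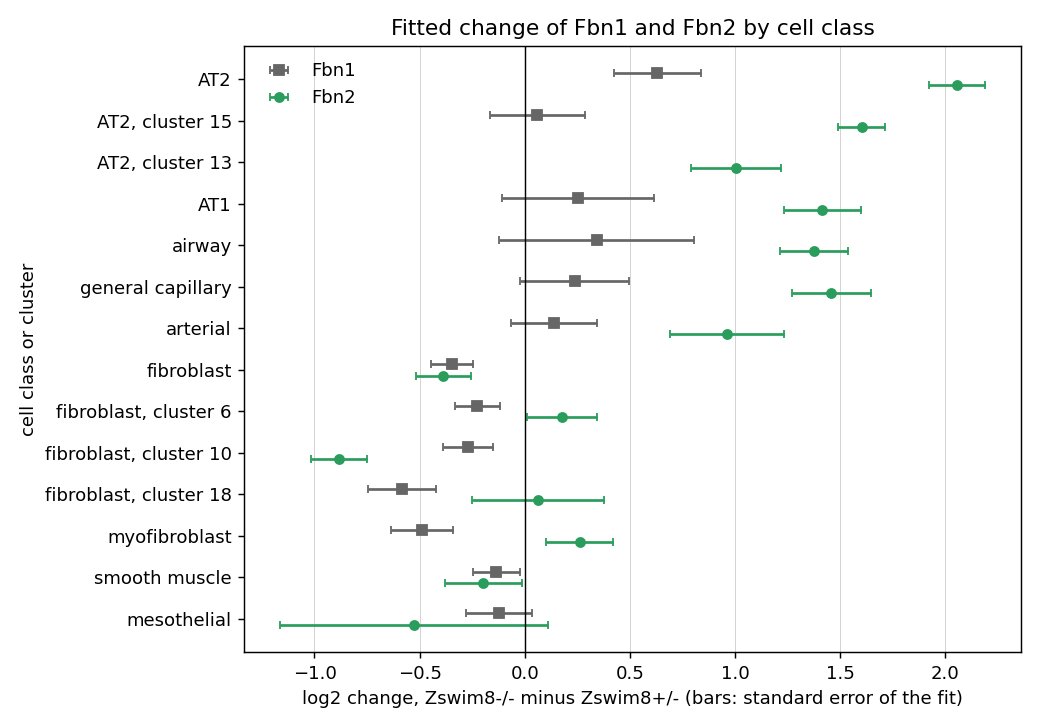
Fitted log2 change of Fbn1 (grey squares) and Fbn2 (green circles) between Zswim8-/- and Zswim8+/- libraries, with bars for the standard error of the fit. Rows are cell classes or single clusters of the AT2 and fibroblast classes. Fbn2 lies at 2.06 in AT2 cells and at -0.88 in fibroblast cluster 10, and Fbn1 stays between -0.58 and 0.63.

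Smooth muscle and myofibroblasts showed small Fbn2 differences. Myofibroblasts, named from markers such as Pdgfra and Hhip, had Fbn2 at 189 and 186 CPM in Het. In KO it was at 201, 264 and 212 CPM, a log2 change of 0.26 (SE 0.16). The groups did not overlap, as for 29% of the 8191 genes tested in myofibroblasts. Smooth muscle had 288 and 303 CPM in Het and 339, 194 and 238 CPM in KO, with overlap.

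Macrophages of the C1q-led class held few fibrillin UMIs of either kind. Their Fbn2 sums were 13 and 8 UMIs in Het and 20, 22 and 39 UMIs in KO, or 7.07 and 4.49 CPM against 7.16, 6.85 and 8.99 CPM. The groups overlapped, since KO2 lay below Het1, where one group lay beyond the other for 30.6% of the 10180 genes tested. The log2 change was 0.42 (SE 0.35). Per macrophage this came to 0.0573 and 0.0381 Fbn2 UMIs in Het and 0.0660, 0.0620 and 0.0920 in KO. Red-cell barcodes, which hold over 50% haemoglobin UMIs and served to show free RNA, gave 0.0126 and 0.0117 Fbn2 UMIs per barcode in Het and 0.0354, 0.0443 and 0.0430 in KO. Their Fbn1 value was 0.0055 to 0.0139 per barcode and overlapped between the groups. The Fbn2 value of these barcodes was higher in every KO library than in both Het libraries. Monocytes held 6 and 5 Fbn2 UMIs in Het and 21, 39 and 38 in KO, over 204 to 541 cells, a log2 change of 2.79 (SE 0.35) that rests on few UMIs. Fbn2 passed the low-count filter in monocytes through the KO libraries alone. The red-cell values moved with monocyte Fbn2, and their part in the result was not tested. AT2 cells held 1.90 and 2.90 Fbn2 UMIs per cell in Het and 17.8, 33.3 and 20.7 in KO, without correction for their depth. The unnamed immune cluster 0, led by Ear2 and Lpl, held 14 and 16 Fbn2 UMIs in Het and 14, 19 and 39 in KO, or 1.69 and 1.99 CPM against 4.24, 3.62 and 5.66 CPM, a log2 change of 1.32 (SE 0.32). The red-cell values moved with it, and their part in this difference was not tested.

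Fbn1 was lower in the KO libraries in fibroblasts and myofibroblasts. In fibroblasts it was at 691 and 677 CPM in Het and 580, 488 and 547 CPM in KO, a log2 change of -0.34 (SE 0.10), with every KO library below both Het libraries. Among the fibroblast clusters, cluster 18 gave 478 and 350 CPM in Het and 271, 297 and 262 CPM in KO, a log2 change of -0.58 (SE 0.16). The change was -0.23 (SE 0.11) in cluster 6 and -0.27 (SE 0.12) in cluster 10. Cluster 18 had a Het mean of 414 CPM, against 873 in cluster 6 and 568 in cluster 10. It held 36 and 25 Het and 114, 80 and 95 KO cells, and the part of this in the class value was not tested. In myofibroblasts Fbn1 was at 334 and 350 CPM in Het and 236, 233 and 260 CPM in KO, a log2 change of -0.49 (SE 0.15), also without overlap. Smooth muscle, mesothelium and arterial cells gave overlapping Fbn1 values. In AT2 cells Fbn1 was at 6.96 and 9.51 CPM in Het and 10.9, 13.2 and 13.3 CPM in KO, a log2 change of 0.63 (SE 0.21). Mixed cells held 55.9% and 65.8% of these Fbn1 UMIs in Het and 72.9% to 94.0% in KO. The log2 change was 0.05 without mixed cells, -0.11 with scored doublets kept and 0.06 within cluster 15. Erythroid cells held 3 and 0 Fbn2 UMIs in Het and 17, 11 and 11 in KO, so Fbn2 passed the low-count filter there through the KO libraries alone. Of all genes tested, the groups did not overlap for 26.6% in arterial cells, 22.6% in erythroid cells, 24.1% in mesothelium, 31.8% in monocytes and 26.5% in smooth muscle.

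The share of cells with at least 1 UMI was compared after cells of 3000 or more UMIs were thinned to 3000. Shallower cells were left out of these shares. This kept 263 of 562 Het and 203 of 296 KO airway cells, and 303 of 437 Het and 808 of 1082 KO macrophages. Fbn1 was found in 77.1% and 79.6% of Het and 63.4%, 72.1% and 76.2% of KO fibroblasts. It was found in 1.08% to 2.82% of AT2 cells over the 5 libraries and in 1.02% to 4.10% of AT1 cells. Fbn2 was found in 60.1% and 73.2% of Het and 56.2%, 56.5% and 62.3% of KO fibroblasts. In AT2 cells the Fbn2 share was 18.1% and 19.4% in Het and 56.5%, 65.5% and 52.7% in KO. Without mixed cells it was 16.3% and 17.2% against 40.1% to 57.0%. In AT1 cells it was 28.5% and 33.7% in Het and 55.4%, 64.8% and 62.3% in KO. Airway cells gave 5.33% and 3.54% in Het and 13.04%, 2.74% and 14.8% in KO, and these overlapped. Neutrophils, which should lack both genes, showed Fbn2 in 0.86% to 1.87% of Het and 1.72% to 3.07% of KO cells, and macrophages in 0.725% to 2.42% and 2.65% to 3.10%. Macrophage Fbn1 shares of 0.38% to 1.36% fell within the neutrophil range of 0.00% to 2.45%. Without thinning, Fbn2 was found in 52.0% and 63.4% of Het and 79.7%, 92.3% and 82.3% of KO AT2 cells at the median depths given above. Unthinned neutrophil shares ran from 0.95% to 5.53% at medians of 3738.5 to 4118.5 UMIs per cell.

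**Figure D3:**
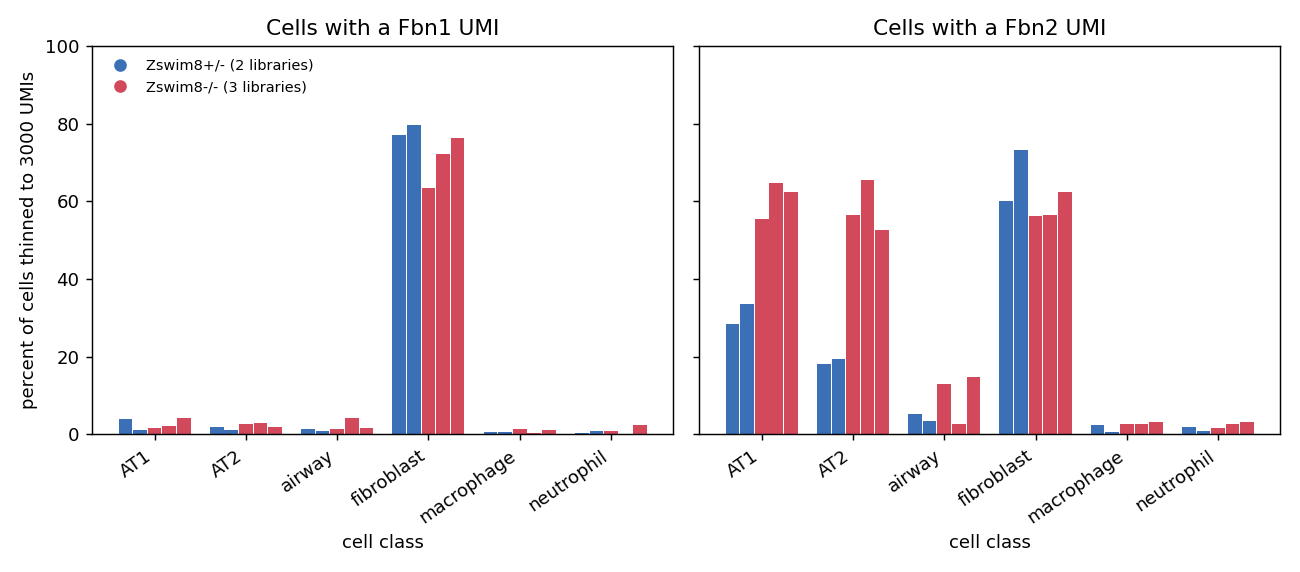
Percent of cells with at least 1 Fbn1 UMI (left) or Fbn2 UMI (right) after thinning to 3000 UMIs, for 5 cell classes and neutrophils as background. Cells with fewer than 3000 UMIs are left out. Each bar is a library, blue for Zswim8+/- and red for Zswim8-/-. Fbn2 is found in 18.1% and 19.4% of Zswim8+/- AT2 cells and in 52.7% to 65.5% of Zswim8-/- AT2 cells.

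Per cell, the median AT2 cell of cluster 13 held 0.00 and 0.328 Fbn2 UMIs per 10000 in Het and 0.00, 1.09 and 0.00 per 10000 in KO1, KO2 and KO3. The median AT2 cell of cluster 15 held 1.05 Fbn2 UMIs per 10000 in both Het libraries and 3.94, 5.37 and 4.50 per 10000 in KO1, KO2 and KO3. Even the lower quartile of the KO cells, at 2.00, 3.22 and 2.55 per 10000, was close to or above the upper Het quartile of 2.21 and 2.16. Single cells reached 25 and 79 Fbn2 UMIs in Het and 231 to 349 in KO. In fibroblast cluster 10 the median cell went from 6.53 and 7.02 per 10000 in Het to 2.56, 3.22 and 3.63 in KO. Both fibrillins were found together, without thinning, in 80.6% and 87.6% of Het and 74.7% to 84.1% of KO fibroblasts. Fbn2 without Fbn1 was found in 1.47% and 1.77% of Het and 2.79% to 3.73% of KO fibroblasts, but in 45.8% and 53.2% of Het and 60.2% to 64.1% of KO AT2 cells.

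The Fbn2 share of all fibrillin UMIs gave the balance of the pair within a class, free of its scaling. Intervals are exact 95% binomial ones, cover counting error only and are not a test of Het against KO. In AT2 cells Fbn2 made up 93.9% (91.6% to 95.7%) and 93.4% (91.1% to 95.3%) of fibrillin UMIs in Het. In KO it made up 97.9% (97.3% to 98.5%), 97.6% (97.1% to 98.0%) and 97.2% (96.7% to 97.6%). The mixed cells described above held most of the AT2 Fbn1 UMIs and were not left out here. AT1 cells gave 92.2% and 96.2% in Het and 96.6% to 98.5% in KO. General capillary cells went from 72.0% and 71.6% to 86.3%, 85.5% and 85.6%. Arterial cells were at the other end, with 5.04% and 6.71% in Het and 7.48%, 8.80% and 12.9% in KO. Myofibroblasts held 36.1% and 34.7% in Het and 46.0%, 53.0% and 44.9% in KO. Among fibroblasts, cluster 10 went from 59.5% and 63.5% to 44.5%, 55.1% and 53.1%, while cluster 6 was at 33.3% and 46.5% in Het and 46.4% to 48.0% in KO. The share is one of counted UMIs and not of protein, since the 2 transcripts need not be counted with the same efficiency.

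**Figure D4:**
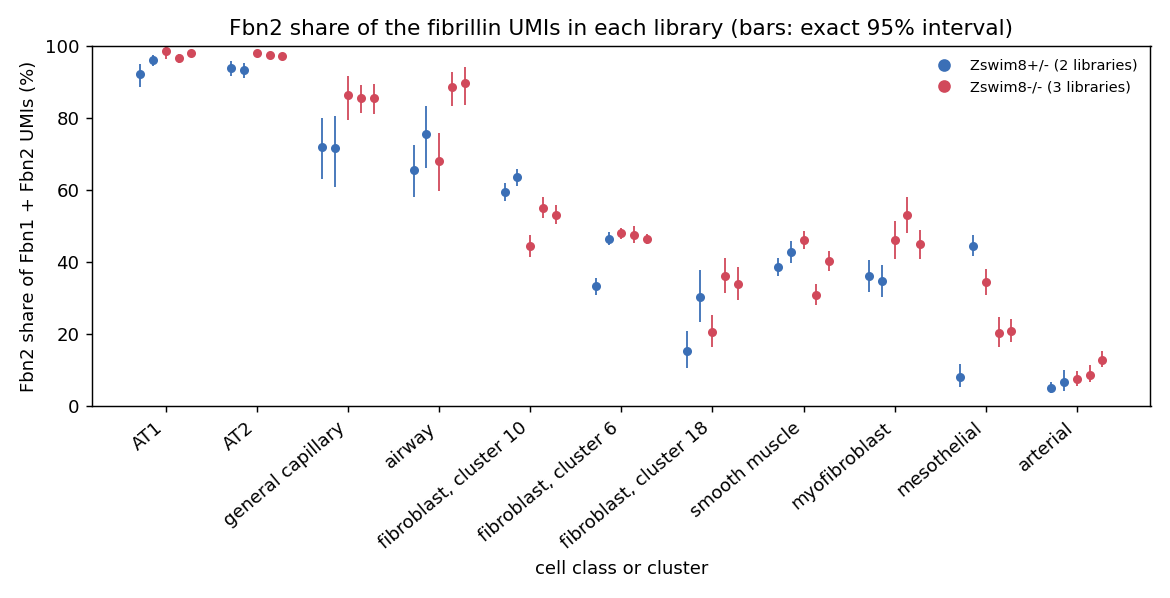
Fbn2 share of the Fbn1 and Fbn2 UMIs, in percent, in each library for 11 cell classes or fibroblast clusters, with exact 95% binomial intervals that cover counting error only. Blue points are Zswim8+/- and red points Zswim8-/- libraries. Alveolar epithelium lies above 90% in every library and arterial cells below 15%.

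By the named lineages alone, epithelial cells gave a larger share of the Fbn2 UMIs in every KO library than in both Het libraries. Epithelial cells gave 18.7% and 19.3% of all Fbn2 UMIs of a library in Het and 35.2%, 59.4% and 48.1% in KO. Cluster 20, led by the epithelial genes Ager, Aqp5 and Cldn18, is not in this share because it stayed unnamed. It held 1058 of 4921 and 910 of 6588 Fbn2 UMIs in Het and 475 of 7490, 801 of 9732 and 1050 of 12633 in KO, from 122 and 119 cells against 19, 20 and 42. Counted as epithelial, this cluster would narrow the Het and KO difference of the epithelial share and bring Het1 close to KO1. Mesenchymal cells gave 51.1% and 59.8% in Het and 50.6%, 25.1% and 35.96% in KO, and unnamed cells 26.2% and 17.97% against 10.4% to 10.8%. Mesenchymal cells gave 75.6% and 80.0% of the Fbn1 UMIs in Het and 75.6% to 81.2% in KO. These shares also follow the number of cells of each lineage, which were 844 and 607 epithelial cells in Het and 313 to 417 in KO.

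The other genes of the microfibril and elastic fibre pathway were taken from 7 lists of 80 genes, of which 79 were in the tables. They were tested with edgeR's quasi-likelihood test, with p-values adjusted over all genes of a class by Benjamini-Hochberg and a threshold of 0.05. The lists were written with earlier results of these data known, so their counts and medians beside those of all genes are descriptions. In fibroblasts 0 of the 70 tested list genes rose and 4 fell in KO, or 5.71%, where 0.238% of all genes tested in that class passed. Their median log2 change was -0.30, against 0.00 over all genes. Eln, which encodes tropoelastin, fell from 4965 and 4876 CPM in Het to 1494.7, 1748 and 2061 CPM in KO, a log2 change of -1.48 (SE 0.14, edgeR adjusted p 0.00385). Ltbp2, a latent TGF-beta binding protein that attaches to fibrillin, fell from 115 and 149 CPM to 48.5, 46.9 and 42.0 CPM (log2 change -1.54, SE 0.13, edgeR adjusted p 0.00287). Adamtsl2, a fibrillin-binding protein, fell from 36.8 and 32.9 CPM to 17.7, 19.1 and 17.2 CPM (log2 change -0.96, edgeR adjusted p 0.0286). The fourth, named after its value was seen, was the cross-linking enzyme Loxl1 at -0.63. With embryo sex as a covariate none of the 28 genes called in fibroblasts passed, and the edgeR adjusted p of both Eln and Ltbp2 was 0.0516, with log2 changes of -1.26 and -1.66. KO3, the only male KO embryo, had Eln at 2061 CPM, and embryo sex and genotype stay partly confounded here.

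In fibroblast cluster 10, where Fbn2 was lower, 1 of the 64 tested list genes rose and 15 fell, where 1.63% of all genes tested passed. The list median was -0.42, against 0.01 over all genes. Of the 8 tested genes of the elastic fibre core and cross-linking list, 5 fell, and these, named after their values were seen, were Eln, Fbln5, Efemp1, Lox and Loxl1. Eln fell from 9141 and 11013 CPM in Het to 2200, 3151 and 3571 CPM in KO, a log2 change of -1.76 (SE 0.18, edgeR adjusted p 0.000726). Ltbp2 fell by 1.86 and Adamtsl2 by 1.252 on the log2 scale. Dcn, the small proteoglycan decorin, rose from 761 and 746 CPM to 1188, 1074 and 1156 CPM, a log2 change of 0.60 (SE 0.12, edgeR adjusted p 0.0206). Without Het2 only 1 list gene was called in this cluster, and with sex as a covariate 0.

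Myofibroblasts had 2 of 57 tested list genes higher and 8 lower, where 1.87% of all genes tested passed. Their list median was -0.23. Ltbp1, which anchors latent TGF-beta to microfibrils, went from 71.3 and 55.3 CPM to 15.5, 24.0 and 29.8 CPM (log2 change -1.40, edgeR adjusted p 0.00375). Itgav, the alpha-v integrin chain that activates latent TGF-beta, went from 175 and 217 CPM to 105, 116 and 107 CPM (log2 change -0.85, edgeR adjusted p 0.00460), and Adamtsl2 changed by -0.87. Vcan (versican) rose by 0.86 and Fn1 (fibronectin) by 0.92. With sex as a covariate 0 of the 10 passed, and the Fn1 value was -0.35 with scored doublets kept.

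In AT2 cells, where Fbn2 was higher, 15 of 61 tested list genes rose and 3 fell, where 17.5% of all genes tested passed in either direction. The list median was 0.21, against 0.01 over all genes, and the partner list alone had a median of 1.03 with 4 of 9 higher. Fbln1 (fibulin-1) rose from 2.46 and 3.76 CPM to 15.6, 15.4 and 11.5 CPM, a log2 change of 2.19 (SE 0.28, edgeR adjusted p 0.000411). Mfap4 rose by 1.76 (edgeR adjusted p 0.00560) and Vcan by 1.57 (edgeR adjusted p 0.00115). Tgfb1, a ligand held latent on microfibrils, fell by 0.74. The mesenchymal markers given above moved with these rises, and Col1a1 went from 0.178 and 0.301 UMIs per AT2 cell to 3.17, 1.91 and 2.20. Without mixed cells the edgeR adjusted p was 0.522 for Mfap4, 0.0996 for Vcan and 0.0230 for Fbln1, and 8 list genes in all were called. With scored doublets kept the Fbln1 log2 change was 0.12, Mfap4 0.25 and Vcan 0.26, and none of them passed, while that of Fbn2 was 1.98. Within cluster 15, 4 of 59 rose and 4 fell, where 9.12% of all genes tested passed. This count of 8 was 1 without mixed cells and 3 to 15 with 1 library left out, the lowest being without Het1 and without Het2.

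**Figure D5:**
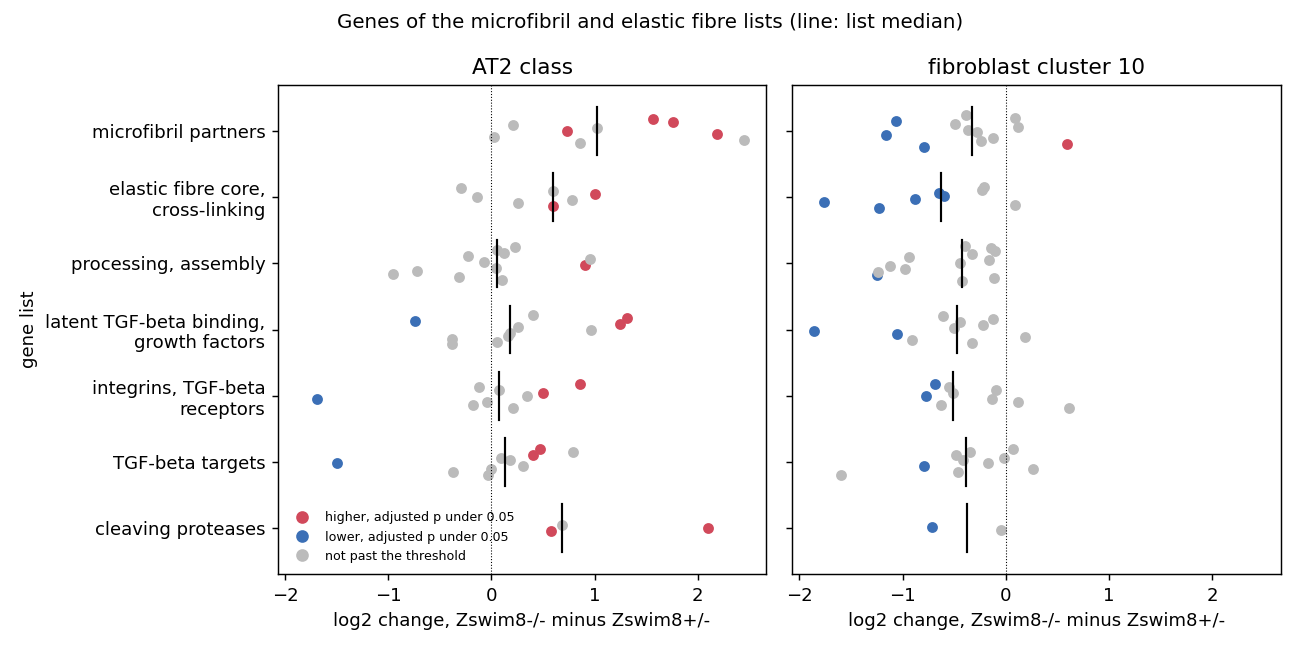
Log2 change between Zswim8-/- and Zswim8+/- of the tested genes of 7 pathway lists in AT2 cells (left) and fibroblast cluster 10 (right). Red and blue points passed an edgeR adjusted p of 0.05 as higher or lower, grey points did not, and black lines are list medians. The list medians lie above 0 in AT2 cells and below 0 in cluster 10.

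In AT1 cells 1 of 47 tested list genes rose and 6 fell, where 4.05% of all genes tested passed. Fbln5, an elastic fibre assembly protein, fell from 429 and 382 CPM to 192, 182 and 206 CPM, a log2 change of -1.06 (SE 0.12, edgeR adjusted p 0.00139). Ccn2, a TGF-beta target, was at -0.85 and Adamts10, a protease that promotes fibrillin-1 assembly, at -0.84, while Ltbp4 rose by 0.55. Without Het1 none of these 4 passed. General capillary cells had 3 of 50 higher and 4 lower, where 6.19% of all genes tested passed. Without Het2 1 list gene passed and without Het1 2, while the genes called over all went from 649 to 121 and 129. The largest change was the fall of Itgb5, an integrin beta chain, from 19.3 and 19.1 CPM to 5.88, 4.29 and 3.53 CPM (log2 change -2.10, edgeR adjusted p 0.000974). Fbln1 rose by 1.11 there, and Eln was at -1.02. Airway epithelium had 1 of 57 higher (Eln, 1.92) and 1 lower, where 1.08% of all genes tested passed. The mesenchymal markers of airway cells summed to 156 and 81.5 CPM in Het and 757, 72.7 and 254 CPM in KO, and without mixed cells the Eln value was -0.65. In macrophages 0 of 40 tested list genes passed with edgeR, where 1.27% of all genes tested passed. Of these 40, 5 had an unadjusted p under 0.05, and DESeq2 called 2.

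Arterial cells had 0 of 41 tested list genes higher and 3 lower with edgeR, where 0.48% of all genes tested passed. Eln was at 2259 and 9750 CPM in Het and 1462, 1316 and 1874 CPM in KO, a log2 change of -1.95 (SE 0.34, edgeR adjusted p 0.0170), and Het2 lay far above Het1. Vcan fell by 2.15 there, from 54.2 and 133 CPM in Het to 19.6, 28.7 and 13.5 CPM in KO. Fn1 fell by 1.87, from 222 and 957 CPM in Het to 139, 195 and 142 CPM in KO. For both genes Het2, with 34 arterial cells, again lay well above Het1. Over the whole endothelial lineage 2 of 62 list genes rose and 3 fell, where 6.87% of all genes tested passed, and Itgb5 was at 43.8 and 41.4 CPM in Het against 6.97, 3.76 and 5.54 CPM in KO (log2 change -2.99). This lineage held 62 and 41 aerocytes in Het, 1 in KO1 and none in KO2 or KO3, so its cell makeup differed between the groups, and the part of this in the lineage value was not tested. Over the epithelial lineage 9 of 71 rose and 1 fell, where 11.5% passed. Over the immune lineage 2 of 66 rose and 6 fell, where 7.86% passed, and monocytes had 1 of 44, Id3, at 0.63, where 0.567% passed. Over the mesenchymal lineage 0 of 72 list genes passed with edgeR, where 0.0507% of all genes tested passed, although 28 of the 72 had an unadjusted p under 0.05. In smooth muscle 0 of 66 passed with edgeR, where 0.24% passed, and 23 had an unadjusted p under 0.05.

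The genes most like each fibrillin over 14 cell classes were found by the Pearson correlation of log2(CPM + 1) of the class means in the Het libraries. The points share libraries and depth, and 10609 genes with at least 20 CPM in a class were compared. For Fbn1 they were the collagen gene Col5a2 (r = 0.96), Eln (0.96), Ltbp4 (0.96), Lox (0.95) and Hdgfl3 (0.95). For Fbn2 they were Tns1 (0.96), the collagen-modifying enzymes P4ha2 (0.95) and Plod2 (0.95), Rbms3 (0.95) and Sema5a (0.94). Fbn1 and Fbn2 correlated with each other at 0.79 in Het and 0.66 in KO over the same classes. In the KO libraries Col5a2 and Eln again ranked first and second for Fbn1, while 0 of the 5 genes of Fbn2 was among the 5 most like it, and P4ha2 had rank 349.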

How the data were processed

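The authors deposited filtered count matrices of unique molecular identifiers (UMIs) per gene and cell barcode, 1 for each of 2 Het and 3 KO libraries. They used Cell Ranger 4.0.0 and mm10, per the submitters' processing notes, and a 10x 3′ v3.1 kit, per the labels' protocols. Cells had to show 500 or more genes and no more than 15% mitochondrial UMIs, and scored doublets were removed. Cells were clustered by Leiden at resolution 1 on 2000 variable genes without the fibrillins or the list genes, and named from markers. Naming details were set after the clusters were seen, so a difference from other studies may come from these rebuilt names. UMIs were summed per library and class (at least 20 cells in every library) and fitted with edgeR 4.0.16 (R 4.3.3) by quasi-likelihood, with TMM scaling, filterByExpr and Benjamini-Hochberg adjustment. DESeq2 1.42.0 was an alternative. The fits were tested on simulated data. The members and lists were chosen with earlier results of these data known. Named list genes are, per class, up to 3 called genes of largest change in each direction, at 10 CPM or more in a group; 1 such gene is not reported here. The labels do not say that libraries are of separate litters, and p-values measure the spread between these 5 libraries. Intervals and UMI counts cover counting error only.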

Additional observations from a re-analysis of the deposited data

Results flagged for a closer look

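Effects of opposite sign in different cell classes drew attention for both genes, with every KO library beyond the Het libraries in each class; the difference between classes was not tested. For Fbn1 the log2 change was 0.63 in AT2 cells and -0.49 in myofibroblasts. The AT2 value was 0.05 without mixed cells, -0.11 with scored doublets kept and 0.06 within cluster 15. For Fbn2 it was 2.79 in monocytes, from few UMIs, and -0.88 in fibroblast cluster 10. Monocyte Fbn2 passed the low-count filter through the KO libraries alone. The Fbn2 value of red-cell barcodes was also higher in every KO library than in both Het libraries, and its part in the monocyte value was not tested.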

How the results depend on the processing

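Counts are genes called by edgeR at an adjusted p of 0.05 unless DESeq2 is named. In AT1 cells 402 genes were called, against 222 with DESeq2, 889 with no low-count filter, 225 with the stricter cell filter, 197 with the sex covariate and 14 to 791 with 1 library left out. Their list genes numbered 7, against 4 with DESeq2, 15 with no filter, 11 with the replicate block and 0 to 14 with 1 library left out. In AT2 cells 2139 genes were called, against 425 with the stricter cell filter, 361 at Leiden resolution 0.5, 1106 without mixed cells, 700 with the sex covariate and 653 to 2683 with 1 library left out. Their list genes numbered 18, against 5, 3, 8 and 8 in the same 4 settings and 8 to 22 with 1 library left out. In airway cells 135 genes were called, against 528 with no filter, 35 without mixed cells, 50 with the sex covariate, 272 with the replicate block and 32 to 286 with 1 library left out. Their list genes numbered 2, against 0 with DESeq2, 9 with no filter, 1 with doublets kept, 0 with the stricter filter, 0 without mixed cells, 1 with the sex covariate, 7 with the replicate block and 0 to 3 with 1 library left out. In fibroblasts 28 genes were called, against 97 with DESeq2, 536 with no filter, 63 with doublets kept, 69 with the stricter filter, 74 and 59 at Leiden resolutions 0.5 and 2, 63 without mixed cells, 0 with the sex covariate, 18 with the replicate block and 6 to 32 with 1 library left out. Their list genes numbered 4, against 10 with DESeq2, 28 with no filter, 0 with the sex covariate, 2 with the replicate block and 2 to 4 with 1 library left out. In macrophages 129 genes were called, against 518 with no filter, 17 with the sex covariate, 449 with the replicate block and 3 to 236 with 1 library left out. Their list genes numbered 0, against 2 with DESeq2, 4 with no filter, 1 with the stricter filter, 4 with the replicate block and 0 to 3 with 1 library left out.

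The Fbn2 log2 change of AT2 cells (2.06) was 1.54 at Leiden resolution 0.5, and the Fbn1 change there (0.63) was -0.11 with doublets kept and 0.0484 without mixed cells. The airway Fbn2 change (1.38) was 1.65 with doublets kept, 0.93 without mixed cells and 1.63 with the sex covariate. The KO minus Het share of AT2 cells with a UMI (percentage points) was 0.955 for Fbn1, and 13.6 unthinned, 0.081 thinned to 2000 UMIs and -0.113 without mixed cells. For Fbn2 it was 39.5, and 27.0 unthinned and 32.3 without mixed cells. In airway cells it was 1.29 for Fbn1 and 2.91 unthinned, and 5.74 for Fbn2 and 18.2 unthinned. Of the 5 genes most like each fibrillin, 2 for Fbn1 and 0 for Fbn2 were again among the 5 in the KO libraries. The cause was not tested in any of these. Deviations from the group mean correlated at -0.13 for Het1 and KO1 and -0.24 for Het2 and KO2. With 2 Het libraries the Het deviations mirror each other, so these values cannot show whether same-numbered libraries were handled together. KO3 is the only male KO library in the fits with the sex covariate. Low UMI sums limit Fbn1 in the epithelium and both genes in macrophages.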
